A study of Homo sapiens with 18 samples.

Results

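The libraries of MDA-MB-231 cells labelled FBL2 were compared with those of the scrambled control, SCR, for the reactivity of 18S rRNA toward 2A3. The comparison used 12 of the 18 samples of the series, 6 labelled FBL2 and 6 labelled SCR. They were chosen by their labels: for each line, 1 library from cells given 2A3 and 1 from cells given the solvent DMSO, with each of 3 primer sets. MDA-MB-231 is an established human breast cancer line. Both lines were probed in living cells for 15 min at 37 °C, and the study's other knockdown, FBL1, was not used here.

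The series title names fibrillarin, and FBL is its gene symbol, but the sample labels do not spell it out. The titles of the FBL2 libraries call them knockdown 1, whereas the design text speaks of KD1 and KD2, so the library names were used to tell the lines apart. The kind of knockdown agent and the amount of fibrillarin left in the cells are not stated in the sources used, and no value below measures the knockdown itself. Cells were seeded in duplicate wells, and whether a library pools those wells is not given either. Each line, reagent and primer set has a single library, so there was no replicate check. Errors after ± are therefore counting errors of single libraries, and no p-value is given. They cover counting only, since reads amplified by PCR and carrying no molecular identifier cannot be taken as separate molecules.

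Fibrillarin is the methyltransferase of box C/D small nucleolar ribonucleoproteins, in which a guide RNA pairs with ribosomal RNA and places a methyl group on the 2′-oxygen of a chosen ribose. 2A3 acylates the 2′-hydroxyl of flexible nucleotides, and the adduct leaves a sequence change or a gap when the RNA is copied into cDNA. Bases held in helices or by proteins react little, and a 2′-O-methylated ribose has no free 2′-hydroxyl for the reagent. The 5′ domain of 18S rRNA forms the body of the small subunit, the central domain its platform and the 3′ major domain its head. Helix 44, near the 3′ end, carries the decoding site.

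Counted from the 5′ end of 18S rRNA, primer set 3 ran from position 25 to 815, primer set 2 from 614 to 1273, and primer set 1 from 1155 to 1840. This gave 791, 660 and 686 measurements, 2137 in all, at 1816 distinct positions. Depth lay between 173638 and 459123 reads per position in set 3, 356621 and 644764 in set 2, and 168818 and 242913 in set 1. The deposited reactivity is the share of reads with an event at a position, rounded to 0.1%. Signal below means the 2A3 value minus the DMSO value of the same line, in percent of reads, and a change means FBL2 minus SCR, in percentage points.

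The stretches that hold the main groups of changes are printed from the base column of the deposited files, 5′ to 3′. They are shown so that the changed nucleotides can be read in their context. Capitals mark nucleotides called changed by the scaled rule defined further on.
Positions 315 to 340, rises at A318, G327 and U328: cgcAcgccccccGUggcggcgacgac
Positions 351 to 376, falls at U359, A360, U361, U367 and U368: gucugcccUAUcaacuUUcgauggua
Positions 733 to 757, a rise at U743 and falls at G744 and U747: ccccgccccuUGccUcucggcgccc
Positions 840 to 864, a rise at G852: cgccuggauaccGcagcuaggaaua
Positions 859 to 883, rises at G867 to A872 and A875: ggaauaauGGAAUAggAccgcgguu
Positions 1408 to 1433, falls at C1418 to G1420 and G1422, rises at C1423, G1431 and U1432: uacgcgacccCCGaGCggucggcGUc
Positions 1705 to 1730, rises at U1714, G1718 and A1719 and a fall at U1721: cgucgcuacUaccGAuUggaugguuu
Positions 1809 to 1833, rises at G1817, A1818 and A1823 to A1825: aucuagagGAaguaAAAgucguaac

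2A3 signal was higher in the FBL2 libraries than in the SCR libraries in all 3 primer sets. The mean signal was 0.207% in SCR and 0.268% in FBL2 with set 1, a ratio of 1.29. It was 0.358% and 0.441% with set 2, a ratio of 1.23, and 0.561% and 0.622% with set 3, a ratio of 1.11. The typical reactive nucleotide moved less than the mean. Where SCR had 1% signal or more, the median FBL2 to SCR ratio was 1.10 in set 1, 1.09 in set 2 and 1.05 in set 3.

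A few nucleotides carried much of the net increase. The 10 positions with the largest rises held 32.9% of the net change in set 1, 47.8% in set 2 and 68.6% in set 3. Of all 2137 measurements, 782 were higher in FBL2, 313 were lower and 1042 were equal after rounding, and 85.3% differed by no more than 0.1 percentage points. By starting level, the 1601 measurements with under 0.2% signal in SCR averaged 0.0420% in SCR and 0.0687% in FBL2, and they held 29.4% of the net change. The 37 measurements with at least 5% averaged 7.96% and 9.22% and held 32.2% of it.

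The DMSO background was also higher in FBL2, least in set 1. Without the 3 measurements at which DMSO was at or above 5%, the mean DMSO value was 0.137% in SCR and 0.138% in FBL2 with set 1. It was 0.125% and 0.136% with set 2, and 0.136% and 0.150% with set 3. The ratio of FBL2 to SCR was 1.01, 1.09 and 1.11 for DMSO, beside 1.30, 1.23 and 1.11 for the signal over the same positions, so in set 3 background and signal rose by about the same factor. DMSO was higher in FBL2 at 286 measurements and lower at 96. The part of differing probing efficiency or read quality in the general rise of signal was not tested.

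**Figure D1:**
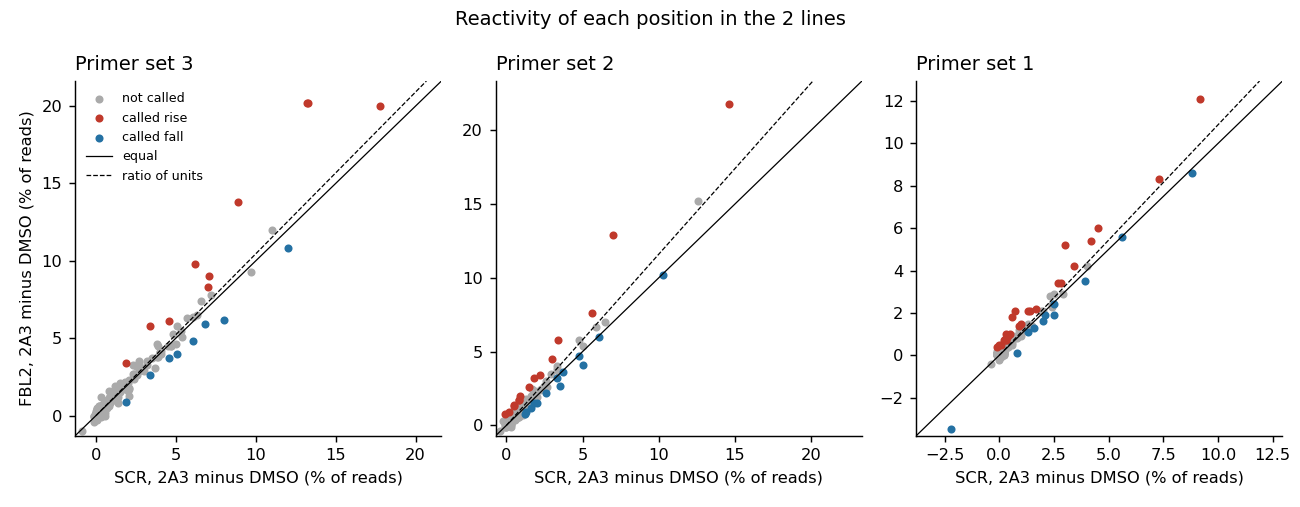
Signal of each position, 2A3 minus DMSO in percent of reads, in SCR (x axis) against FBL2 (y axis), with 1 panel per primer set and 1 library pair per line. The solid line marks equal values and the dashed line the ratio of the units of the lines; most points lie near the lines, and U743 and U328 stand far above them.

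Positions were called changed by 2 rules. In the scaled rule each line was divided by its own unit. That unit is the mean of its signals between the 90th and 98th percentiles of the primer set. The division takes out the ratio of the units, which was 1.09, 1.16 and 1.05 in sets 1, 2 and 3. The mean signal ratios were 1.29, 1.23 and 1.11, so part of a general difference in signal can remain. A call needed a change of at least 0.3 units that also exceeded the 95% range of the combined counting error. The SCR units were 0.958%, 1.68% and 3.00% in sets 1, 2 and 3, and the FBL2 units 1.04%, 1.95% and 3.13%. The same rule therefore asks for 0.287 percentage points in set 1 and 0.899 in set 3, and call counts of different sets cannot be set against each other. The unscaled rule needed 0.5 percentage points and the same excess over that range.

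The scaled rule called 51 rises, 2.39% of all measurements, and 32 falls, 1.5%. The unscaled rule called 78 rises, 3.65% of all measurements, and 18 falls, 0.842%. Both rules called 48 rises and 14 falls in common, and no measurement was called in opposite directions. All 51 scaled rises were also higher in FBL2 in percent of reads, and 31 of the 32 scaled falls were lower. The exception was C1418, at 5.6% in both lines. Set 1 held 26 scaled rises and 11 falls, set 2 15 and 13, and set 3 10 and 8.

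The scaled counts depend on how the unit is set. With the 90th percentile as the unit there were 121 rises and 131 falls, and with box-plot scaling 307 and 400. When box-plot scaling set only the ratio of the lines and the size of the SCR unit was kept, a form chosen after those counts had been seen, there were 22 and 84. Under all 5 scalings 32 rises and 14 falls kept their call with each scale's own unit, and 15 rises and 14 falls with the SCR unit kept. The box-plot SCR unit was only 0.162% in set 1 and 0.180% in set 2. A threshold of 0.3 such units is smaller than the step to which the reactivity was rounded. Box-plot scaling in its own unit therefore hardly tested the size of a change in these sets. With the SCR unit kept, the rises that held under all 5 were U198, G327, U328, U743 and U800 in set 3 and U1248 in set 2. In set 1 they were A1522, U1714, G1718, A1719, G1817, A1818 and A1823 to A1825. The falls were C73, C311, A360, U361, U367, U368 and C713 in set 3, and C713 and U747 in set 2. In set 1 they were A1217, C1419, G1420, G1422 and C1766. U1248, the only rise of set 2 among these, had DMSO values of 50.4% to 54.2% and was called a fall with set 1. A1217 was not called with set 2, where it was higher in FBL2.

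**Figure D2:**
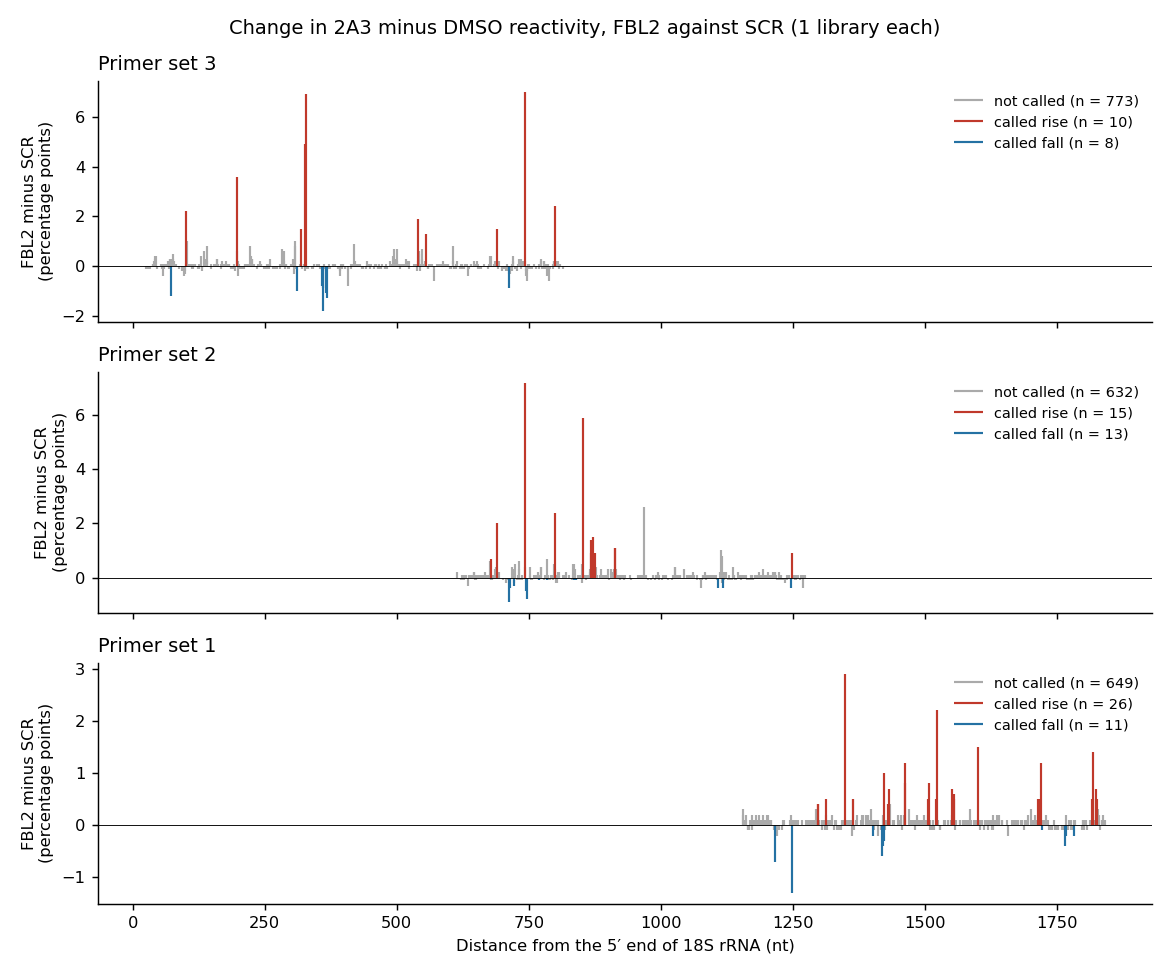
Change in signal (FBL2 minus SCR, percentage points) at each position of 18S rRNA, plotted by distance from the 5′ end, with 1 panel per primer set. Coloured bars are scaled rises and falls; the tallest bar in sets 2 and 3 is U743, and the falls between U359 and U368 form a cluster.

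In the 5′ domain, U328 and its neighbour G327 had the largest rises outside the overlap with set 2. U328 read 13.6% ± 0.0799 with 2A3 and 0.3% with DMSO in SCR, and 20.6% ± 0.0991 and 0.4% in FBL2. G327 read 9.0% and 0.1% in SCR and 13.9% and 0.1% in FBL2. Both follow a run of cytidines, and A318, 9 nucleotides before G327, was also called, at 2.2% in SCR and 3.7% in FBL2 with 2A3. Across A318 to U328 the mean signal was 2.92% in SCR and 4.11% in FBL2, 1.41 times as high. Only 5 of these 11 positions were higher in FBL2, 3 were equal and 3 were lower.

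U198 rose from 6.3% ± 0.0549 to 9.9% ± 0.0695 with 2A3, with DMSO at 0.1% in both lines. U541 went from 7.1% to 9.0%, with DMSO at 0 in both. Neither was covered by another primer set. C73, in contrast, fell from 12.1% ± 0.0797 to 10.9% ± 0.0762.

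The clearest group of falls lay from U359 to U368, also in the 5′ domain. U361 read 8.0% ± 0.0612 in SCR and 6.2% ± 0.0542 in FBL2 with 2A3, and DMSO was 0 in both lines. U368 read 6.2% and 4.9%, and U367 5.1% and 4.0%. A360 read 6.8% and 5.9%. In this stretch 8 of 10 positions were lower, 1 was equal and 1 was higher, and the mean signal was 3.04% in SCR and 2.42% in FBL2, a ratio of 0.796. These falls were read in the same libraries as the rises at G327 and U328.

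U743, in the central domain, was the largest change of the comparison and was read with both primer sets. With set 2 it read 14.7% ± 0.0538 in SCR and 21.9% ± 0.0762 in FBL2, and with set 3 13.3% ± 0.0828 and 20.3% ± 0.103, with DMSO at 0.1% throughout. The change was 7.2 percentage points with set 2 and 7.0 with set 3. Box-plot scaling turned the scaled change of set 2 to -16.6 of its units, and that of G852, U800, G868, U689 and U871 in the same set below 0 as well. Close to it the direction turned: with set 2, G744 read 2.2% in SCR and 1.7% in FBL2, and U747 3.7% and 3.0%. U747 read 3.9% and 3.3% with set 3, where it was called by the unscaled rule only.

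The other positions called with both of these sets were U689, U800 and C713. U800 read 3.4% in SCR and 5.8% in FBL2 with each set, although it lies within 20 positions of the end of set 3. U689 read 5.8% and 7.8% with set 2, and 4.8% and 6.3% with set 3. C713 was the one that fell, from 5.1% to 4.2% with set 2 and from 4.7% to 3.8% with set 3.

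Agreement between these primer sets is a check of amplification and reading. The cells may be the same, so it is no replicate of the knockdown. Over the 202 shared positions, Pearson's r between the sets was 0.997 for the SCR signal, 0.996 for the FBL2 signal and 0.969 for the change. These coefficients describe positions, which share libraries of the same lines and are not independent. Set 2 called 11 of these positions and set 3 called 4, all of them among the 11. Of the 11, 10 changed in the same direction in percent of reads with both sets.

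Sets 1 and 2 shared 119 positions and agreed less. Pearson's r of the change was -0.421 over all of them and 0.0954 without U1248, whose values are given further on. No call was shared, and the called positions A1217, C1247 and U1248 went in opposite directions. Signals are low in this overlap, and apart from U1248 the median gap between the changes was 0.1 percentage points, the rounding step.

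**Figure D3:**
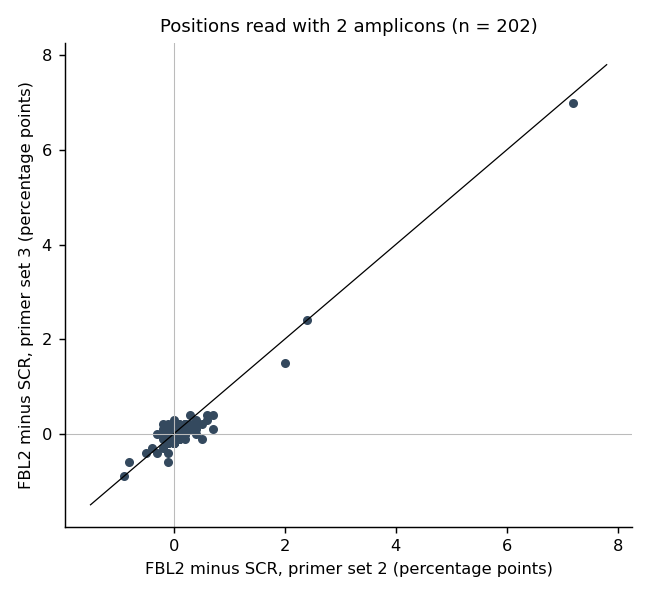
Change in signal (FBL2 minus SCR, percentage points) at the 202 positions read with both primer set 2 (x axis) and primer set 3 (y axis). The line marks equal changes; U743 lies at 7.2 and 7.0, U800 at 2.4 and 2.4, and most positions lie near 0.

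G852 rose from 7.2% ± 0.0377 to 13.1% ± 0.0589 with set 2, with DMSO at 0.2% in both lines. Its signal was 1.84 times as high in FBL2. No other set covered it. After it, all 9 positions from G867 to A875 were higher in FBL2, and 7 were called. The mean signal there was 1.29% in SCR and 2.27% in FBL2. Within the group G868 read 2.0% and 3.4% and U871 3.3% and 4.8%. Neither G852 nor any call of this group held under all 5 scalings with the SCR unit kept. With each scale's own unit G867, A869, A872 and A875 held, but the box-plot threshold of this set then lay below the rounding step.

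G867 belongs to the listed 2′-O-methylated nucleotides. It read 0.7% ± 0.0117 in SCR and 1.6% ± 0.0206 in FBL2 with 2A3, and 0.2% with DMSO in both. The next nucleotides, G868 to A872, are on no list and were called as well.

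Some large signals in set 2 stayed nearly level in percent of reads while the unit of the set was 1.16 times as high in FBL2, and these were called falls. C785 read 10.5% with 2A3 in both lines, and its DMSO value was 0.2% in SCR and 0.3% in FBL2. G838 read 6.2% and 6.1%, and U770 5.5% and 5.4%. These falls exist only relative to the general rise of the set. U969, named after its values were seen, read 12.7% and 15.3% and lay just under the threshold at 0.299922 units.

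In the head, G1348 read 9.3% ± 0.0693 in SCR and 12.2% ± 0.081 in FBL2 with set 1, with DMSO at 0.1% in both. A1522 read 3.1% and 5.3%, A1601 4.5% and 6.0%, and U1463 4.3% and 5.5%. With the 90th percentile as the unit, the scaled changes of G1348 and U1463 turned negative, and that of A1601 was 0 and lost its call. Around position 1420 the direction alternated. C1419 fell from 2.6% to 2.0% and G1420 from 2.3% to 1.9%, whereas C1423, directly behind G1422, read 7.6% and 8.6%. A1217 read 0.9% in SCR and 0.2% in FBL2 with set 1, but 0.3% and 0.5% with set 2, so its direction was not shared.

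Helix 44 lies within positions 1702 to 1831, between the P-site cytidine C1701 and the listed A1832. There the mean signal was 0.278% in SCR and 0.335% in FBL2, and of 130 positions 8 were called rises and 4 falls. These are 6.15% and 3.08% of the helix, beside 3.79% and 1.60% of all positions of set 1, a difference that was not tested. The unscaled rule called the same number of rises there, 8, and no fall. The 4 falls were still lower in percent of reads, with changes from -0.4 percentage points at C1766 to -0.1 at U1721. Without scaling, C1766 kept its call at -0.418 units and C1783 lost it at -0.209. The rises started from low levels. A1818 read 0.8% ± 0.0193 in SCR and 2.2% ± 0.034 in FBL2, and A1719 0.6% ± 0.0167 and 1.8% ± 0.0307. Falls in the helix were C1766, from 4.0% to 3.6%, C1783, from 8.9% to 8.7%, and C1767 and U1721.

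A1824 and A1825 are the decoding adenosines, which inspect the pairing of codon and anticodon. A1824 read 0.2% ± 0.00967 in SCR and 0.7% ± 0.0192 in FBL2, and A1825 0.3% ± 0.0118 and 0.8% ± 0.0205, with DMSO at 0 in both lines. Both were called. They lie within 20 positions of the end of the set 1 stretch. From G1817 to A1825 the mean signal was 0.2% and 0.622%. At U1714 and G1718, part of the change came from DMSO, which fell from 0.5% to 0.3% and from 0.6% to 0.4%.

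The other listed functional nucleotides were not called. C1701, at the P site, read 0.7% in SCR and 1.0% in FBL2. G626, of the loop that closes on the codon and anticodon, read 0.7% and 0.8% with set 2 and 0.5% in both lines with set 3.

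**Figure D4:**
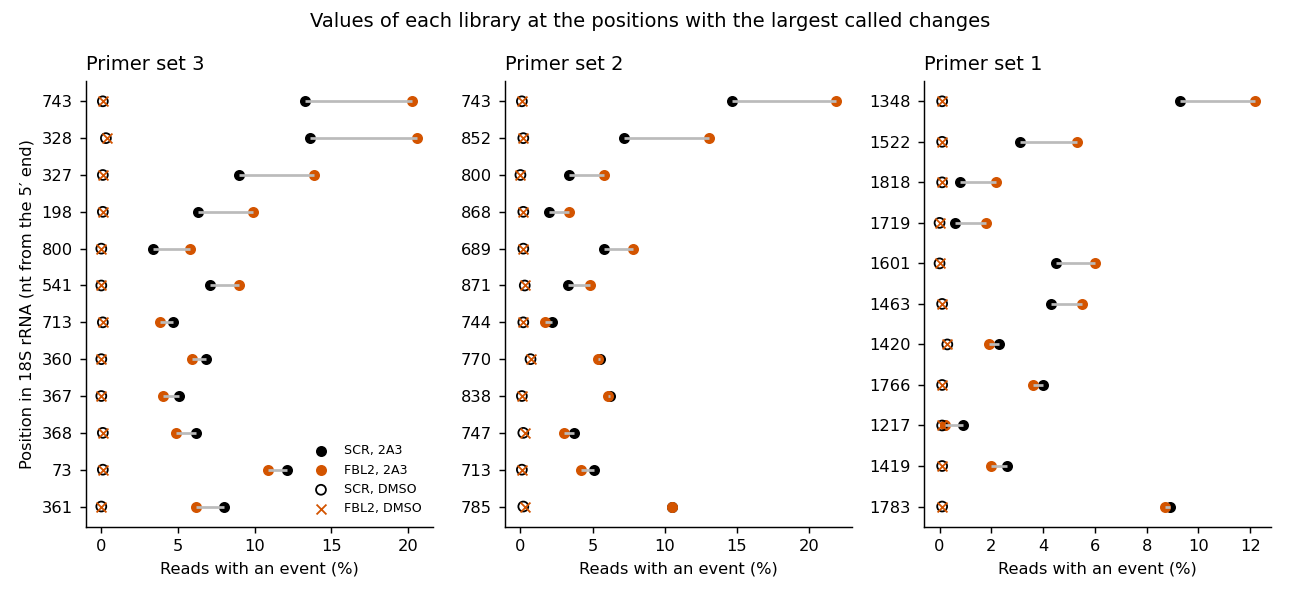
Percent of reads with an event in each of the 4 libraries at the 6 largest scaled rises and falls of each primer set, apart from U1248; filled points are 2A3, open circles SCR DMSO and crosses FBL2 DMSO. DMSO values stay below 1%, and the rises are longer than the falls on this unscaled axis.

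All 41 listed sites of 2′-O-methylation were measured, in 48 measurements: 16 were higher in FBL2, 30 equal and 2 lower. The share that was higher was 33.3%, beside 36.6% of all 2137 measurements. Gm867 was the one call in 48, a share near the 2.39% of rises over all measurements, so the count says nothing particular about these sites. The median change was 0 both at these sites and over all positions. None of them had 1% signal in SCR. Their mean signal was 0.0813% in SCR and 0.133% in FBL2, a ratio of 1.64 at levels below the rounding step or near it. The ratio was 1.18 over all positions, but it varied with the starting level. It was 1.63 over the 1601 measurements with under 0.2% signal in SCR, and 1.15 over the 258 from 0.2% to 0.5%. The data do not measure methylation itself.

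The listed pseudouridines, isomers of uridine made with box H/ACA guide RNAs, gave no call in 49 measurements. Of these 13 were higher, 32 equal and 4 lower. Over all 454 measurements of uridines, 46.3% were higher, beside 26.5% of these, and 19 rises and 8 falls were called. None of the listed pseudouridines had 1% signal in SCR, and their mean signal there was 0.0694%, beside 0.582% over all uridines. With so few measurements at low signal, a count of 0 says nothing particular, beside 2.39% of rises over all measurements and 4.19% over uridines. U866 and U1136 moved most, each reading 0.4% in SCR and 0.8% in FBL2. Of the 7 listed base-modified nucleotides 4 were measured. C1337 read 0.4% and 0.3%, G1639 0.3% and 0.4%, and A1832 0.2% and 0.1%.

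U1248, a hypermodified uridine near the P site, stood apart because its DMSO value was about as high as its 2A3 value. With set 1 it read 52.0% with 2A3 and 54.2% with DMSO in SCR, and 48.9% and 52.4% in FBL2. With set 2 it read 50.8% and 50.9% in SCR, and 51.2% and 50.4% in FBL2. The scaled change was a fall of 1.06 units with set 1 and a rise of 0.470 units with set 2. At G60, the position with the highest DMSO value of set 3, all 4 libraries lay between 94.4% and 95.4%, and it was not called.

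The direction of the change differed among the bases. Among the 179 measurements with at least 1% signal in SCR, 43 of 55 at uridines were higher in FBL2 and 12 were lower, with a median ratio of 1.21. Positions shared by primer sets enter once per set: the measurements cover 155 distinct positions, 46 of them uridines and 49 cytidines. Adenosines were higher in 21 of 29, with a median ratio of 1.10, and guanosines in 25 of 39, with a median ratio of 1.11. Cytidines were higher in 19, lower in 27 and equal in 10 of 56, with a median ratio of 1.00. Scaled calls divided likewise, with 19 rises and 8 falls at uridines but 3 rises and 16 falls at cytidines. As shares of all measurements of the base, these are 4.19% and 1.76% of uridines and 0.519% and 2.77% of cytidines. The excess of called falls at cytidines was seen with the scaled rule only: the unscaled rule called 7 rises and 6 falls at cytidines, and 30 and 7 at uridines. The rules differ in cutoff as well as in scaling, and the part of each was not tested. No test was made of this difference between bases.

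**Figure D5:**
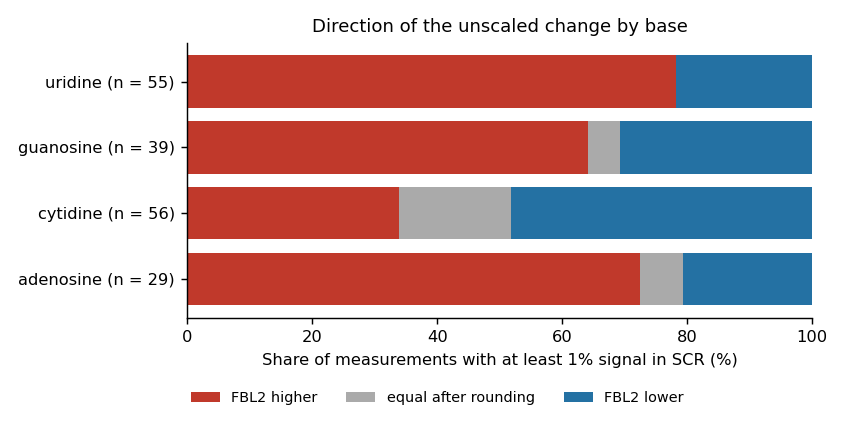
Share of measurements with at least 1% signal in SCR (x axis, percent) whose unscaled signal was higher, equal or lower in FBL2, for each base. Uridines were higher in 43 of 55 measurements and cytidines in 19 of 56.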

How the data were processed

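The deposited files give, per position, a reactivity as a fraction of reads with an event and a coverage signal (depth), both as made by the authors. Per the submitters' processing notes, Bowtie2 and SAMtools were used; no version is listed. The events counted and the reference sequence are not stated in the sources used. The deposited difference column equals 2A3 minus DMSO in the 5 pairs that have it.

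Positions with depth above 0 in all 4 libraries of a primer set were kept, and fractions were turned into percent. Counting errors came from the share and the depth. Python 3.11.15, numpy 2.4.6 and pandas 2.3.3 were used. The calling was checked on simulated data that held counting noise only, not differences between libraries. Depth and rounding to 0.1% limit changes near that step. Named positions are the 6 largest scaled rises and falls of each set, listed nucleotides that were called, listed base-modified and functional nucleotides, the highest DMSO value of each set, and positions called with 2 sets; others are named as context. Lists of modified nucleotides come from textbook knowledge. The comparison, the lists and the rules were chosen with earlier results of these data known. Alternatives changed the scale, DMSO subtraction, thresholds, depth, ends, error and primer sets. For the 90th percentile and box-plot scales, a second form that keeps the SCR unit at its size was chosen after the counts of the first had been seen, and both are reported.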

Additional observations from a re-analysis of the deposited data

Results flagged for a closer look

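U1248 was called in opposite directions with the 2 primer sets that read it. Its scaled change was -1.06 units with primer set 1 and 0.470 units with primer set 2, and its DMSO value lay between 50.4% and 54.2%. The difference between the sets was not tested.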

How the results depend on the processing

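The number of calls depended on the scale. Against 51 rises and 32 falls, the 90th percentile as the unit gave 121 and 131, and box-plot scaling 307 and 400. These units are smaller, so 0.3 of them asks for a smaller change, and they also set another ratio between the lines. With the SCR unit kept at its size, a form chosen after those counts had been seen, box-plot scaling gave 22 rises and 84 falls, and the 90th percentile stayed within 1.5 times of both counts. Under all 5 scalings, 32 of the 51 rises and 14 of the 32 falls kept their call with each scale's own unit, and 15 and 14 with the SCR unit kept. In sets 1 and 2, 0.3 of the box-plot SCR unit is below the rounding step. Box-plot scaling in its own unit therefore hardly tested size there. Without scaling there were 15 falls. A threshold of 0.2 units gave 53 falls, and 0.5 units 21 rises and 13 falls. A sliding mean of 3 positions gave 31 rises. Of the 36 largest named changes, 6 rises and 6 falls per set, 23 then kept their call, 12 lost it and 1 turned. With 1 median ratio per base 32 of them kept it, U1463, C1783 and U541 lost it and 1 turned. Without primer set 1 there were 25 rises and 21 falls, and without primer set 2 19 falls. Unscaled calls were 141 rises and 40 falls at 0.3 percentage points, and 30 and 6 at 1. Without DMSO subtraction the mean ratios of sets 1, 2 and 3 were 1.14, 1.17 and 1.09. With DMSO subtracted, the median ratio at positions with 1% signal or more, in place of the ratio of means, was 1.10, 1.09 and 1.05. A1601 was at 0 and lost its call with the 90th percentile in both forms. Some named changes turned. With the 90th percentile, G1348 was at -0.417 and U1463 at -0.5 (-0.130 and -0.157 with the SCR unit kept). With box-plot scaling in set 2, U743 was at -16.6, G852 at -0.672, U800 at -1.71, G868 at -0.521, U689 at -8.61 and U871 at -3.34. With the SCR unit kept they were at -1.77, -0.0718, -0.183, -0.0556, -0.920 and -0.357. The box-plot unit of set 2 was 0.180% in SCR and 0.337% in FBL2, a ratio of 1.88. U541 was at -0.0011 and -0.000135 in these forms, C785 at 0.260 with 1 ratio per base and G744 at 0.492 with the sliding mean. All these rises and G744 keep in percent of reads the direction given above. Libraries were matched by primer set, but replicates could not be paired, since each line has a single library per reagent and primer set.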
